A study of Homo sapiens with 4 samples.

Results

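The comparison described here is that of AGS cells transfected with siHOXB9, a small interfering RNA (siRNA) against the transcript of HOXB9, with AGS cells transfected with the control siRNA siScramble. Its members are all gene rows of the deposited expression table with at least 1 FPKM (fragments per kilobase of transcript, scaled to the sequencing depth) in either AGS library, which were 13252 of 57815 rows. AGS is a human cell line from a gastric carcinoma, and the labels call it a gastric cancer cell. Both cultures were transfected with Lipofectamine 2000, a lipid reagent. The labels give the genotype of the siScramble culture as WT and that of the siHOXB9 culture as HOXB9 knockdown, and name no siRNA sequence, dose or time after transfection. The series holds 4 libraries, of which the 2 of AGS are used here, 1 for each siRNA. There are no replicates, so no test was made, and every difference below is a difference between these 2 libraries.

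HOX genes encode homeodomain transcription factors that bind short AT-rich DNA sites, often together with PBX and MEIS partner proteins, and that set position along the body axis in the embryo. HOXB9 lies in the HOXB cluster and belongs to the group of posterior HOX genes. In tumours it has been studied for its links to proliferation, growth factor production and the epithelial state of the cells, and geminin (GMNN) and the acetyltransferase PCAF (KAT2B) are known partners or modifiers of HOX proteins.

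The HOXB9 transcript was lower in the library labelled as the knockdown. It was at 16.4 FPKM with siScramble and at 4.44 FPKM with siHOXB9, so 27.0% of the control level was left. From the estimated depths these values correspond to 495 and 129 fragments, and counting error alone gives a 95% interval of 22.3% to 32.8% for the remaining share. HOXB9 (ENSG00000170689.9) lies on the minus strand of chromosome 17 at chr17:48621159-48626356 in GRCh38 and has 1 annotated transcript of 2581 bases, with no exon shared with another gene. Throughout, the change of a gene is log2((siHOXB9 FPKM + 1)/(siScramble FPKM + 1)), so that a change of 1 in size is a 2-fold difference after adding 1 FPKM, and a gene is said to have risen or fallen only past that size. HOXB9 fell, with a change of -1.68.

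The 2 libraries were of similar depth, estimated at 12970000 fragments with siScramble and 12460000 with siHOXB9. They held 12770 and 12745 rows at 1 FPKM or more. For a transcript of 2000 bases, counting error alone gives a log2 ratio a 95% half-width of 0.85 at 1 FPKM, 0.38 at 5 FPKM, 0.19 at 20 FPKM and 0.085 at 100 FPKM. These half-widths cover counting error only and not the variation between cultures, which was not measured. Of the markers of the labelled cell type, KRT8 was at 1566 FPKM with siScramble and 1880 FPKM with siHOXB9, and EPCAM at 328 and 359 FPKM. CDH1, which encodes E-cadherin, was at 1.63 and 3.28 FPKM, so this defining epithelial gene was low in both libraries. All 9 markers of T, B and NK cells and all 5 of endothelial cells stayed under 1 FPKM in both libraries.

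By the 2-fold rule 223 rows rose with siHOXB9, which is 1.68% of those measured, and 293 fell, which is 2.21%. More rows lay below 0 (7554, or 57%) than above 0 (5698), and the median change was -0.06. The middle 50% of rows had changes between -0.28 and 0.16, and the 1st and 99th percentiles were -1.26 and 1.21. With the libraries rescaled to the same summed FPKM the split turned to 278 higher and 235 lower, so the balance of the directions depends on the scaling, while the groups of genes described below keep theirs unless it is said otherwise. The share of rows past 2-fold was 23.0% where the mean of the libraries was under 1 FPKM, 3.90% from 3 to 10 FPKM and 1.15% at 100 FPKM or more. It was 2.42% among 11052 protein-coding genes, and 11.4% among 1364 rows whose symbol has no gene in GENCODE 29. Of the rows past 2-fold, 80 belong to one of the gene lists used here and 436 to none.

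**Figure D1:**
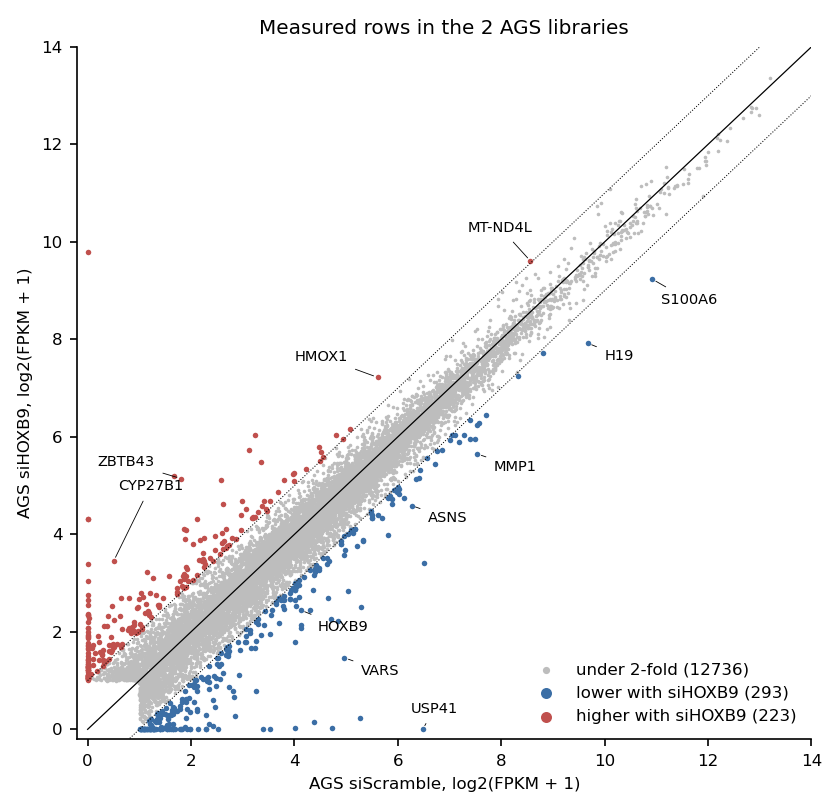
Measured rows in the 2 AGS libraries, as log2(FPKM + 1) with siScramble on the horizontal axis and with siHOXB9 on the vertical axis. The solid line marks equal values and the dotted lines the 2-fold rule; 223 rows rose, 293 fell, and the spread is widest at low values.

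The largest changes of single genes were taken from 4464 protein-coding genes that reached 5 FPKM in either library, had a single row and shared no exon with another gene. Of these, 42 rose and 59 fell. CHAC1, which degrades glutathione, was at 54.9 FPKM with siScramble and 14.9 FPKM with siHOXB9 (change -1.82). KIF21B, a kinesin motor, was at 10.5 and 2.89 FPKM (-1.57). LCK, a tyrosine kinase best known from T cells, was at 7.88 and 2.17 FPKM (-1.49). Serine synthesis contributed a pair of enzymes to the 15 genes that fell most, PSPH (39.2 and 13.6 FPKM, -1.46) and PSAT1 (167 and 61.1 FPKM, -1.44). CDT1, BIRC5 and RAD51C, which act in replication licensing, chromosome segregation and recombination, were also among them, with changes of -1.38, -1.36 and -1.34. LCOR, a nuclear receptor corepressor, was at 16.4 and 3.23 FPKM (-2.04).

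Several of the genes that fell most have near-identical relatives, and their values are uncertain where reads could be split between copies. USP41 was at 88.5 FPKM with siScramble and listed at 0 with siHOXB9, while its close relative USP18 was at 10.1 and 13.1 FPKM. The same limit holds for CST4 (39.4 and 13.8 FPKM), LGALS7B (8.50 and 2.51 FPKM) and PSG6 (15.9 and 5.596 FPKM), which belong to the cystatin, galectin and pregnancy-specific glycoprotein families. VARS, valyl-tRNA synthetase, was at 30.3 and 1.76 FPKM (-3.50). It lies in the MHC region of chromosome 6, of which GRCh38 also holds alternative copies, and how reads matching several copies were assigned is unknown here.

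The 15 genes that rose most included 3 enzymes of steroid, drug and retinoid metabolism. HSD3B1, a steroid dehydrogenase, was at 3.13 FPKM with siScramble and 13.02 FPKM with siHOXB9 (change 1.76). CYP3A5, a cytochrome P450 that oxidizes steroids and drugs, was at 3.49 and 13.8 FPKM (1.72), and ALDH1A1, a retinaldehyde dehydrogenase, at 5.38 and 16.3 FPKM (1.44). Secreted or hormone-like products followed, among them SPINK1, a trypsin inhibitor (5.13 and 23.6 FPKM, 2.003), APOD, an apolipoprotein (3.70 and 11.2 FPKM, 1.38), and the natriuretic peptide gene NPPB (1.06 and 5.96 FPKM, 1.76). ANXA1, annexin A1, which has anti-inflammatory roles, was at 12.9 and 33.8 FPKM (1.33). The 2 largest values were those of ZBTB43, a zinc finger protein (2.49 and 34.4 FPKM, 3.34), and TMEM164, a membrane protein (5.01 and 33.7 FPKM, 2.53). TRANK1 (0.567 and 5.47 FPKM) and ZDHHC14, a palmitoyltransferase (6.80 and 19.96 FPKM), also belong to them. CXCL10, HMOX1 and NFKBIZ, which belong to the same 15, are described with their pathways.

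**Figure D2:**
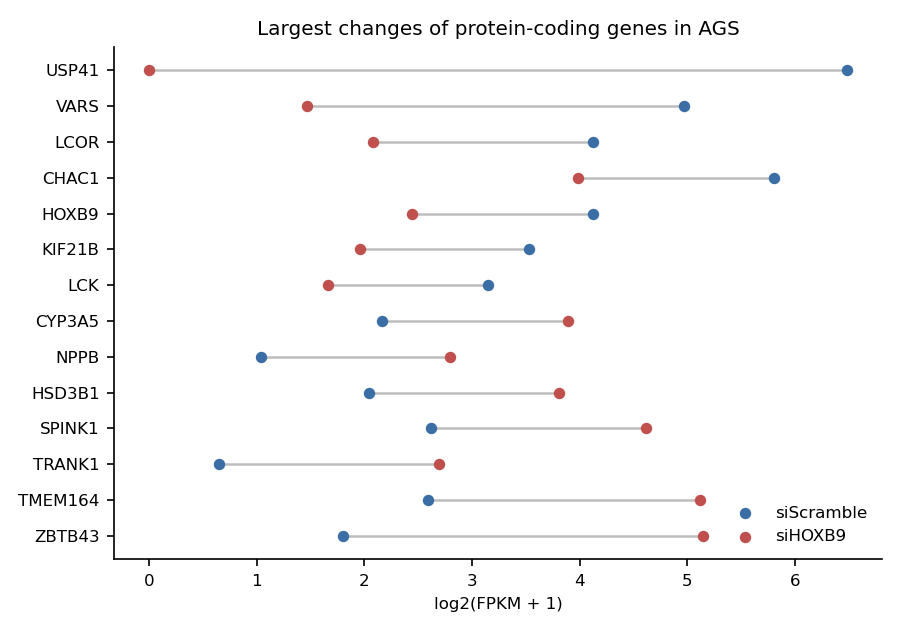
The 7 protein-coding genes that fell most and the 7 that rose most in AGS, as log2(FPKM + 1) in the siScramble and the siHOXB9 library. Genes under 5 FPKM in both libraries or with a shared exon are left out; USP41 is listed at 0 with siHOXB9.

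Cell division genes were lower with siHOXB9. Of 168 measured genes in 14 cell cycle lists, 156 lay below 0, 30 fell and 2 rose, and the median change was -0.70. For all rows the share that fell was 2.21% and the median -0.06. In the 93 members that share no exon with another gene, 86 lay below 0, 14 fell and the median was -0.71. Progress through the cell cycle is driven by cyclins, which bind and switch on the cyclin-dependent kinases (CDKs), and is held back by CDK inhibitors and by the RB proteins that restrain E2F factors.

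Among 11 cyclins and CDKs, CCNA2 and CDK2, which work as a pair in S phase, fell. Neither is among the 4 members without a shared exon, which all lay below 0 without passing 2-fold. CCNA2 (cyclin A2) was at 36.2 FPKM with siScramble and 12.48 FPKM with siHOXB9 (change -1.47), and CDK2 was at 63.7 and 27.5 FPKM (-1.18). The mitotic pair did not pass 2-fold, with CCNB1 (cyclin B1) at 173 and 102 FPKM (-0.76) and CDK1 at 60.6 and 33.9 FPKM (-0.82). CCNE1 (cyclin E1), which acts at the entry to S phase, was at 29.1 and 16.8 FPKM (-0.76). CCND1 (cyclin D1), which links growth signals to the cycle, was the 1 member above 0, at 241 and 283 FPKM (0.23).

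The 7 CDK inhibitors had no common direction. Their median was 0.11 with 4 above 0, and -0.28 with 2 above 0 in the 5 without a shared exon. CDKN2B (p15), an inhibitor of CDK4 and CDK6, rose from 14.9 to 33.0 FPKM (change 1.09), and its neighbour CDKN2A was at 0.237 and 1.67 FPKM (1.11). Both other INK4 genes were lower, CDKN2C at 7.999 and 4.07 FPKM (-0.83) and CDKN2D at 7.31 and 3.17 FPKM (-0.996, just under 2-fold). CDKN1A (p21) and CDKN1B (p27), the inhibitors of CDK2, were at 165 and 178 FPKM (0.11) and at 55.3 and 60.3 FPKM (0.12). Of these, CDKN2A and CDKN1A share exon sequence with antisense or neighbouring transcripts, whose reads cannot be told apart without strand.

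The transcription factors of late cell cycle genes were lower as well. FOXM1 fell from 43.8 to 21.3 FPKM (change -1.005), MYBL2 was at 138 and 83.7 FPKM (-0.71), and their partners in the DREAM and MuvB complexes, LIN9 and LIN54, were at 7.04 and 4.02 FPKM (-0.68) and at 4.91 and 2.76 FPKM (-0.65). FOXM1, which only just passed 2-fold, is not among the 3 of these without a shared exon. Within the RB and E2F family the 13 members had a median of -0.16 and none passed 2-fold. Members that are themselves cell cycle genes were lower, with E2F1 at 22.9 and 14.1 FPKM (-0.66) and E2F7 at 2.88 and 1.23 FPKM (-0.80). RB1 was at 15.2 and 17.0 FPKM (0.16) and E2F6, a repressor, at 10.97 and 13.4 FPKM (0.27).

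Mitosis genes were lower almost without exception. Of 78 measured members of 6 mitosis lists 77 lay below 0, 19 fell and none rose, with a median of -0.77. The exception was FZR1, an activator of the anaphase-promoting complex in G1, at 66.8 and 67.5 FPKM. Among the members without a shared exon, all 44 lay below 0 and 9 fell. Over all rows 57% lay below 0 and 2.21% fell. The kinetochore and centromere list, whose proteins tie chromosomes to the spindle, had the lowest median of the 6 (-1.01), and 9 of its 17 members fell. CASC5, the kinetochore scaffold also called KNL1, was at 5.61 FPKM with siScramble and 2.04 FPKM with siHOXB9 (change -1.12), and CENPA, the centromeric histone, at 34.2 and 15.3 FPKM (-1.11). HJURP, the chaperone that deposits CENPA, was at 44.1 and 20.2 FPKM (-1.09), and CENPW at 33.6 and 15.5 FPKM (-1.07). The smallest difference in this list was that of SPC24, at 8.70 and 6.97 FPKM (-0.28).

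The other mitosis lists differed in the size of the change more than in its direction. The 11 mitotic kinases had a median of -0.94, and PLK1 (81.1 and 34.03 FPKM, change -1.23), PBK (24.5 and 9.95 FPKM, -1.22), AURKB (85.4 and 38.9 FPKM, -1.11) and BUB1B (35.1 and 16.2 FPKM, -1.07) fell. WEE1, which holds CDK1 in check before mitosis, was at 16.1 and 12.6 FPKM (-0.34), the smallest difference among them. In the checkpoint and anaphase list (median -0.69) CDC20, the activator of the anaphase-promoting complex, fell from 208 to 85.8 FPKM (-1.27), while its ubiquitin-conjugating enzyme UBE2C was at 246 and 128 FPKM (-0.93). Spindle motors and microtubule proteins had a median of -0.69, and KIF2C (44.3 and 19.2 FPKM, -1.17), KIF20B (14.1 and 5.95 FPKM, -1.12) and KIF20A (20.1 and 8.82 FPKM, -1.11) fell. In the passenger and cytokinesis list (median -0.85) BIRC5 fell from 50.7 to 19.1 FPKM (-1.36), and its partner INCENP was at 32.6 and 17.0 FPKM (-0.90). The condensin and cohesin list was the least shifted (median -0.56): NCAPD2 fell from 62.8 to 30.4 FPKM (-1.02), while the cohesin core subunits SMC1A and SMC3 were at 42.1 and 36.3 FPKM (-0.21) and at 12.4 and 10.7 FPKM (-0.20). NCAPD2 is not among the 7 members of this list without a shared exon, none of which fell.

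Promoters of mitosis genes are known to carry the CHR (cell cycle genes homology region, TTTGAA), which recruits the DREAM complex, near CCAAT boxes (CCAAT), which bind NF-Y. In RefSeq promoters on GRCh38.p14, spanning 250 bases before to 50 after a start site, 60.3% of 73 promoters of the mitosis lists (63 of 78 genes matched) held TTTGAA on either strand and 63.0% held CCAAT on either strand. Of 13604 promoters of all measured genes 10.4% held TTTGAA and 35.0% held CCAAT, and of 35116 promoters in all 15.2% and 34.6% did. Both motifs stood together in 42.5% of the mitosis promoters and in 4.15% of those of all measured genes. TTTGAA was in 20.7% of 203 promoters of genes that fell and in 17.1% of 129 promoters of genes that rose. Both motifs together were in 9.85% and 3.88% of these. Among symbols with a single row, promoters were found for 132 of 286 genes that fell and 91 of 218 that rose. For all measured genes they were found for 9367 of 13155. Such matches are a description of letters and not of binding. CDC20 and PLK1, which both fell, are shown as the 250 bases before the start site, 5′ to 3′ on the gene's strand (plus for both), with CHR and CCAAT matches on either strand in capitals. The CDC20 stretch is chr1:43358731-43358980 and the PLK1 stretch is chr16:23678639-23678888.
CDC20: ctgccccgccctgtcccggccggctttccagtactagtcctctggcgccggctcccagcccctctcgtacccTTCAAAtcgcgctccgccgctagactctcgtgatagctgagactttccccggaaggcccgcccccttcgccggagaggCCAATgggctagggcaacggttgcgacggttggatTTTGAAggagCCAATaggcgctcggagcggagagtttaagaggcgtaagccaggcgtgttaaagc
PLK1: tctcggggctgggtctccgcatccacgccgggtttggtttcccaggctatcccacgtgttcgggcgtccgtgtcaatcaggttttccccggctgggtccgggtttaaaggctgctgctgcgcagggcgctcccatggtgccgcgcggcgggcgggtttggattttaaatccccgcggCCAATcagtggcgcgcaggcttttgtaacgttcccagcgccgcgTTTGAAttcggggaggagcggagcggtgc
In CDC20 the 2 CHR matches begin 178 and 65 bases before the start site and the CCAAT matches 100 and 55 bases before it. In PLK1 the CHR match begins 29 bases and the CCAAT match 73 bases before the start site.

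Replication genes were lower too, with all 50 measured members of 3 lists below 0, 8 that fell, and a median of -0.70. All 25 members without a shared exon were below 0, and 5 of them fell. The shares over all rows were 57% below 0 and 2.21% that fell. Licensing of origins loads the MCM helicase onto DNA, and its list had a median of -0.83. CDT1, the loading factor, fell from 68.7 to 25.8 FPKM (change -1.38), and its inhibitor geminin (GMNN) fell from 30.3 to 14.6 FPKM (-1.01), so both sides of this control were lower. ORC1 (5.49 and 1.92 FPKM, -1.15) and the kinase CDC7 (7.36 and 3.17 FPKM, -1.004) fell too. The 6 MCM2 to MCM7 helicase subunits ranged from -0.99 for MCM2 and MCM5 to -0.60 for MCM3.

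Enzymes that supply deoxynucleotides had a median of -0.83 over 8 members, and 3 fell. RRM1 and RRM2, the subunits of ribonucleotide reductase, were at 57.9 and 25.3 FPKM (change -1.16) and at 103 and 53.2 FPKM (-0.94). TYMS, thymidylate synthase, was at 108 and 51.3 FPKM (-1.06) and TK1, thymidine kinase, at 131 and 64.8 FPKM (-1.01). TK1 is the 1 member of this list without a shared exon. Fork proteins were less shifted, with a median of -0.56 over 22 members. Of these RFC5, a clamp loader subunit, fell from 21.1 to 8.99 FPKM (-1.15), PCNA, the clamp, was at 203 and 122 FPKM (-0.73), and POLA1, the catalytic subunit of polymerase alpha, at 3.26 and 2.65 FPKM (-0.23). RFC5 is not among the 11 fork members without a shared exon, none of which fell.

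Replication genes are known targets of E2F factors, and the letters of an E2F site, TTTNGCGC on either strand, were found in 30.5% of 59 promoters of the replication lists (43 of 50 genes matched). They were in 5.48% of the mitosis promoters, in 2.69% of those of all measured genes and in 1.79% of all promoters. Of 203 promoters of genes that fell 4.43% held them, and of 129 promoters of genes that rose 1.55% did. The CHR letters, in contrast, were in 5.08% of the replication promoters. CDT1 and GMNN, which act against each other in licensing, are shown as the 250 bases before the start site on the plus strand, from RefSeq on GRCh38.p14, with the E2F letters in capitals. The CDT1 stretch is chr16:88803539-88803788 and the GMNN stretch is chr6:24775163-24775412.
CDT1: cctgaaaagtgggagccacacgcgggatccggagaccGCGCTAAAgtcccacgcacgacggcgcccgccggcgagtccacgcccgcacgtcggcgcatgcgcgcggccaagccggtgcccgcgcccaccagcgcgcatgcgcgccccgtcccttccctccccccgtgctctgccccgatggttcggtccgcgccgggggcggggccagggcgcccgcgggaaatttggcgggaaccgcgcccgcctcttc
GMNN: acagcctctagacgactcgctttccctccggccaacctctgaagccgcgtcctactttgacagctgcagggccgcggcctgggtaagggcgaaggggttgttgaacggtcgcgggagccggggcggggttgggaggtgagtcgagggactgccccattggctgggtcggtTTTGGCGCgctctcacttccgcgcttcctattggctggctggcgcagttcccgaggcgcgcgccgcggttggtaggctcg
The match begins 213 bases before the start site in CDT1, on the minus strand, and 80 bases before it in GMNN, on the plus strand.

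DNA repair and chromatin genes that act during S phase were lower beside them. In the list of homologous recombination and Fanconi genes 16 of 18 lay below 0 and 4 fell, with a median of -0.74. Among all rows 57% lay below 0 and 2.21% fell. The recombination genes RAD51C and XRCC3 were at 15.1 FPKM with siScramble and 5.33 FPKM with siHOXB9 (change -1.34) and at 22.4 and 10.4 FPKM (-1.04). FANCD2, of the Fanconi pathway, was at 15.2 and 6.28 FPKM (-1.15). BRCA1 went the other way, at 5.58 and 8.15 FPKM (0.48). The 9 members of this list without a shared exon all lay below 0, and RAD51C alone of them fell. Mismatch and excision repair genes had a median of -0.33 with none past 2-fold, and checkpoint sensors and kinases one of -0.31, with CHEK1 at 30.9 and 20.1 FPKM (-0.60) and CHEK2 at 17.0 and 21.2 FPKM (0.30).

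All 16 histone chaperones and architectural proteins were below 0 (median -0.59), and 3 fell. DEK, which binds and bends DNA, was at 144 and 58.9 FPKM (change -1.28), SET, a histone chaperone, at 321 and 151 FPKM (-1.09), and HMGB2 at 169 and 79.9 FPKM (-1.07). Among Polycomb proteins and methyltransferases the direction was mixed. HELLS, a remodeler needed for DNA methylation, fell from 23.8 to 10.4 FPKM (-1.12) and DNMT1, which copies methylation at the fork, was at 34.8 and 20.7 FPKM (-0.72), whereas EZH2, the Polycomb methyltransferase, was at 20.1 and 29.6 FPKM (0.54). HELLS is not among the 4 members of this list without a shared exon.

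**Figure D3:**
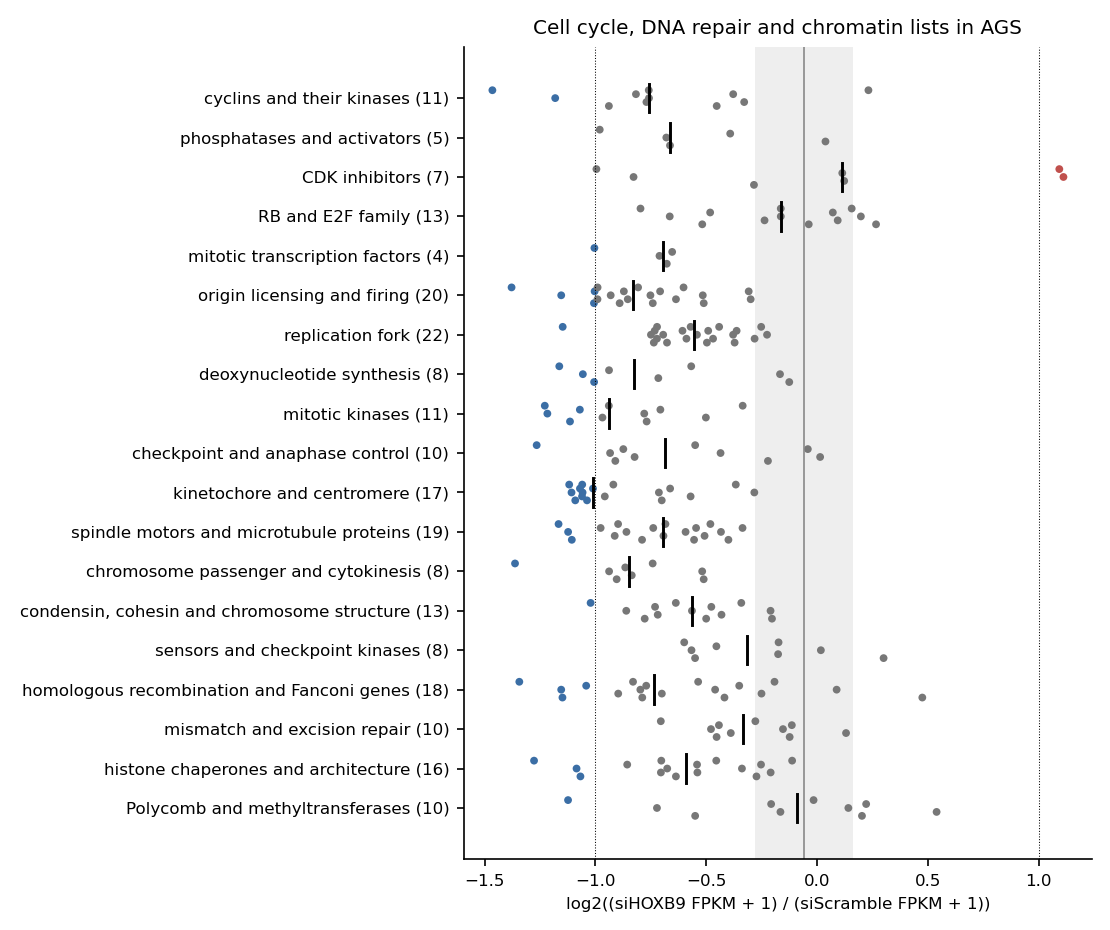
Change of every measured member of the cell cycle, DNA repair and chromatin lists, with the number of members in brackets. Black bars are list medians, blue points fell and red points rose past the dotted 2-fold lines, and the grey band holds the middle 50% of all measured rows; most medians lie left of the band, and those of the CDK inhibitors, the RB and E2F family and the Polycomb list lie within it.

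The integrated stress response showed a broad decrease in transcript levels with siHOXB9. In this pathway kinases phosphorylate the translation factor eIF2alpha, translation of ATF4 rises, and ATF4 with partners such as CEBPB and CEBPG switches on genes of amino acid supply. Of 63 measured members in 7 lists 54 lay below 0, 11 fell and none rose, with a median of -0.48. For the 34 members without a shared exon, 30 lay below 0, 6 fell and the median was -0.51. Over all rows 57% lay below 0 and 2.21% fell. The kinases and phosphatase regulators at the top of the pathway were split, with 3 above and 3 below 0 and none past 2-fold. Their median was 0.15, and -0.03 in the 3 without a shared exon. EIF2AK3 (PERK) was at 5.62 FPKM with siScramble and 7.25 FPKM with siHOXB9 (change 0.32), EIF2AK4 (GCN2) at 24.0 and 23.5 FPKM (-0.03), and PPP1R15A, the feedback phosphatase subunit, at 31.1 and 44.4 FPKM (0.50).

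The transcript of ATF4 itself was lower without passing 2-fold, at 373 and 249 FPKM (change -0.58). CEBPB was at 84.2 and 51.5 FPKM (-0.70) and TRIB3, an ATF4 target that feeds back on it, at 30.2 and 17.6 FPKM (-0.75). DDIT3 (CHOP) was at 17.3 and 16.9 FPKM (-0.03), ATF3 at 9.47 and 10.4 FPKM (0.12) and ATF5 at 9.87 and 14.2 FPKM (0.48). ATF4, CEBPB and TRIB3 were thus lower, and DDIT3 stood at its control value.

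In the serine, glycine and one-carbon list all 5 measured enzymes were below 0 and 4 fell, with a median of -1.07: besides PSPH and PSAT1, the mitochondrial folate enzymes MTHFD2 (128 and 60.6 FPKM, change -1.07) and MTHFD1L (59.8 and 29.1 FPKM, -1.01) fell, and SHMT2 was at 339 and 207 FPKM (-0.71). ASNS, asparagine synthetase, fell from 76.0 to 23.1 FPKM (-1.68), in a list whose other members stayed under 2-fold. PYCR1 and ALDH18A1, which make proline, were at 192 and 170 FPKM (-0.18) and at 35.5 and 35.9 FPKM (0.02). Of the 7 other effectors all were below 0, and CHAC1 and DDIT4, an inhibitor of mTORC1 (178 and 60.9 FPKM, -1.53), fell. CHAC1 is among the members without a shared exon, while ASNS and DDIT4 are not. GDF15, a secreted stress hormone, was at 770 and 449 FPKM (-0.77).

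Transporters and tRNA synthetases followed. All 9 amino acid transporters were below 0 and 3 fell, namely SLC7A1, which imports cationic amino acids (44.2 and 19.2 FPKM, change -1.16), SLC1A5, which imports glutamine (450 and 211 FPKM, -1.09), and SLC7A5, the light chain of the leucine exchanger (138 and 64.8 FPKM, -1.07). Its heavy chain SLC3A2 was at 175 and 138 FPKM (-0.34). Of 20 cytosolic aminoacyl-tRNA synthetases 18 were below 0, with a median of -0.44, and VARS alone passed 2-fold. The next largest differences were those of GARS (109 and 60.5 FPKM, -0.84), CARS (54.4 and 31.7 FPKM, -0.76) and YARS (125 and 78.7 FPKM, -0.66), while HARS and RARS lay above 0 at 38.5 and 39.0 FPKM (0.02) and at 72.5 and 81.3 FPKM (0.16).

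The letters TGATGNAAT of a composite C/EBP-ATF site were in 5.63% of 71 promoters of these lists (46 of 63 genes matched), in 0.537% of those of all measured genes and in 0.991% of all promoters. The 4 promoters with a match were 3 start sites of MTHFD1L and 1 of TARS, so the share rests on 2 genes. The MTHFD1L stretch of 250 bases before a start site, on the plus strand at chr6:150866236-150866485 of GRCh38.p14 (RefSeq), holds the match, in capitals, from 129 bases before the start.
MTHFD1L: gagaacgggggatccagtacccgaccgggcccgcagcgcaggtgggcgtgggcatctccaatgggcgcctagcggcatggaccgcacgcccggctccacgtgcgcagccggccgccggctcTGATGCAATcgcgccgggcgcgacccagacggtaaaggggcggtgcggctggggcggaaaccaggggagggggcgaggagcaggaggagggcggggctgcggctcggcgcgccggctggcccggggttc

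The unfolded protein response, which shares the PERK branch with the integrated stress response, had no member past 2-fold. Its 16 chaperones and ERAD genes had a median of 0.11 with 10 above 0. In the 7 without a shared exon the median was -0.10 with 3 above 0. HSPA5 (BiP), the main chaperone of the endoplasmic reticulum, was at 455 and 531 FPKM (change 0.22), HSP90B1 at 1035 and 1275 FPKM (0.30) and DNAJC3 at 21.9 and 27.0 FPKM (0.29). CANX, calnexin, was the member furthest below 0, at 330 and 191 FPKM (-0.79). XBP1 was at 122 and 115 FPKM (-0.08), and ATF6 at 11.3 and 11.8 FPKM (0.06).

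Interferon response genes were higher with siHOXB9. In this response sensors of foreign nucleic acid, such as RIG-I (DDX58) and MDA5 (IFIH1), induce interferons, whose receptors activate factors such as STAT2 and IRF9, and these bind the interferon-stimulated response element (ISRE) of antiviral genes. Of 70 measured members of 9 lists 57 lay above 0, 6 rose and none fell, with a median of 0.39. Over all rows 5698 of 13252 lay above 0, 1.68% rose and 2.21% fell. The 44 members without a shared exon had 39 above 0, 5 that rose and a median of 0.46. Levels were mostly low, so that counting error is large for many of these genes.

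Along the pathway, sensors came first. DDX58 was at 3.95 FPKM with siScramble and 8.56 FPKM with siHOXB9 (change 0.95) and IFIH1 at 7.84 and 13.03 FPKM (0.67), while MB21D1 (cGAS), a DNA sensor, was at 6.94 and 5.95 FPKM (-0.19) and its partner TMEM173 (STING) at 1.03 and 0.253 FPKM (-0.70). Of the interferon genes only those of the lambda type reached 1 FPKM: IFNL1 was at 5.64 and 10.8 FPKM (0.83), IFNL2 at 0.481 and 1.51 FPKM (0.76) and IFNL3 at 0.964 and 1.35 FPKM (0.26). IFNL2 and IFNL3 are near-identical copies, so their values are uncertain. Receptors and kinases were mixed, with 4 above and 4 below 0. IL10RB, a chain of the lambda receptor, was at 24.9 and 20.2 FPKM (-0.29) and JAK1 at 18.5 and 24.7 FPKM (0.40).

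The factors downstream of the receptors were above 0 in 6 of 8 cases (median 0.34). STAT2 was at 22.5 and 37.1 FPKM (change 0.70) and IRF9 at 60.9 and 83.0 FPKM (0.44), and IRF3, which is activated without new transcription, was at 164 and 135 FPKM (-0.28). The 6 genes that rose were all effectors. CXCL10, a T cell chemokine, was at 1.51 and 5.80 FPKM (1.44), IFIT1 at 14.6 and 36.8 FPKM (1.28) and IFIT3 at 6.86 and 16.1 FPKM (1.12), IFI44L at 1.24 and 4.39 FPKM (1.27), and the antiviral genes RSAD2 (viperin) and MX2 at 2.29 and 5.88 FPKM (1.06) and at 3.35 and 7.97 FPKM (1.04). OASL and OAS1, relatives in the OAS gene family, were just under 2-fold, at 26.9 and 53.8 FPKM (0.97) and at 13.8 and 27.0 FPKM (0.92).

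Not every effector was higher. The IFITM genes, which block virus entry and lie side by side on chromosome 11, did not move with the IFIT genes. IFITM1 was at 234 and 241 FPKM (change 0.04), IFITM3 at 452 and 471 FPKM (0.06), and IFITM2 at 70.8 and 35.4 FPKM (-0.98); the 3 are close paralogs and IFITM1 and IFITM2 share exon sequence, so reads could be split between them. ISG15, the ubiquitin-like modifier, was at 221 and 336 FPKM (0.60), and its conjugating enzyme UBE2L6 at 31.9 and 49.2 FPKM (0.61). B2M, which forms part of every MHC class I complex, was at 1668 and 2255 FPKM (0.43) and NLRC5, the activator of class I genes, at 10.7 and 13.6 FPKM (0.31). Of 15 listed class I genes 7 were measured, and 5 of these lay above 0. PSMB10 (-0.27) and ERAP2 (-0.25) lay below it. HLA-B and HLA-F were near the filter, at 1.55 and 2.61 FPKM and at 0.549 and 1.36 FPKM.

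The letters GAAANNGAA of an ISRE, on either strand, were in 65.3% of 49 promoters of the interferon effector lists (34 of 44 genes matched). They were in 6.51% of 13604 promoters of all measured genes, in 8.11% of all promoters, in 12.4% of 129 promoters of genes that rose and in 10.3% of 203 promoters of genes that fell. IFIT1, IFIT3 and CXCL10, which rose, are shown as the 250 bases before a start site in RefSeq on GRCh38.p14, 5′ to 3′ on the gene's strand, with the ISRE letters in capitals. The stretches are chr10:89392373-89392622 on the plus strand for IFIT1, chr10:89332279-89332528 on the plus strand for IFIT3, and chr4:76023498-76023747 on the minus strand for CXCL10.
IFIT1: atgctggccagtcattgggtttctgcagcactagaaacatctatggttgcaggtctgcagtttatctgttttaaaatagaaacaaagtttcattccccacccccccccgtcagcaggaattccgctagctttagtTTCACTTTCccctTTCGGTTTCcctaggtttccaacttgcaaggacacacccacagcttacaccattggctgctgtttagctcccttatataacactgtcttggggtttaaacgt
IFIT3: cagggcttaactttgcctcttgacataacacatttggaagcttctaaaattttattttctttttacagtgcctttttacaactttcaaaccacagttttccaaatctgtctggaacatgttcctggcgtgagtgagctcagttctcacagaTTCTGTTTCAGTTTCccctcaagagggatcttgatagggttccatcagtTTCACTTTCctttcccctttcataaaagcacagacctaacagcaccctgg
CXCL10: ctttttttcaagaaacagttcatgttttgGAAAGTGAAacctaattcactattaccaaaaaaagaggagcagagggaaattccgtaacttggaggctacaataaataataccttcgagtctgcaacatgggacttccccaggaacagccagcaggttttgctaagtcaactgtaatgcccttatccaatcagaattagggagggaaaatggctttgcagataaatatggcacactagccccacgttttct
IFIT1 has 2 matches, which begin 115 and 102 bases before the start site, and IFIT3 has 3, of which the first 2 overlap and the last begins 50 bases before it. CXCL10 has 1, which begins 221 bases before the start site.

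**Figure D4:**
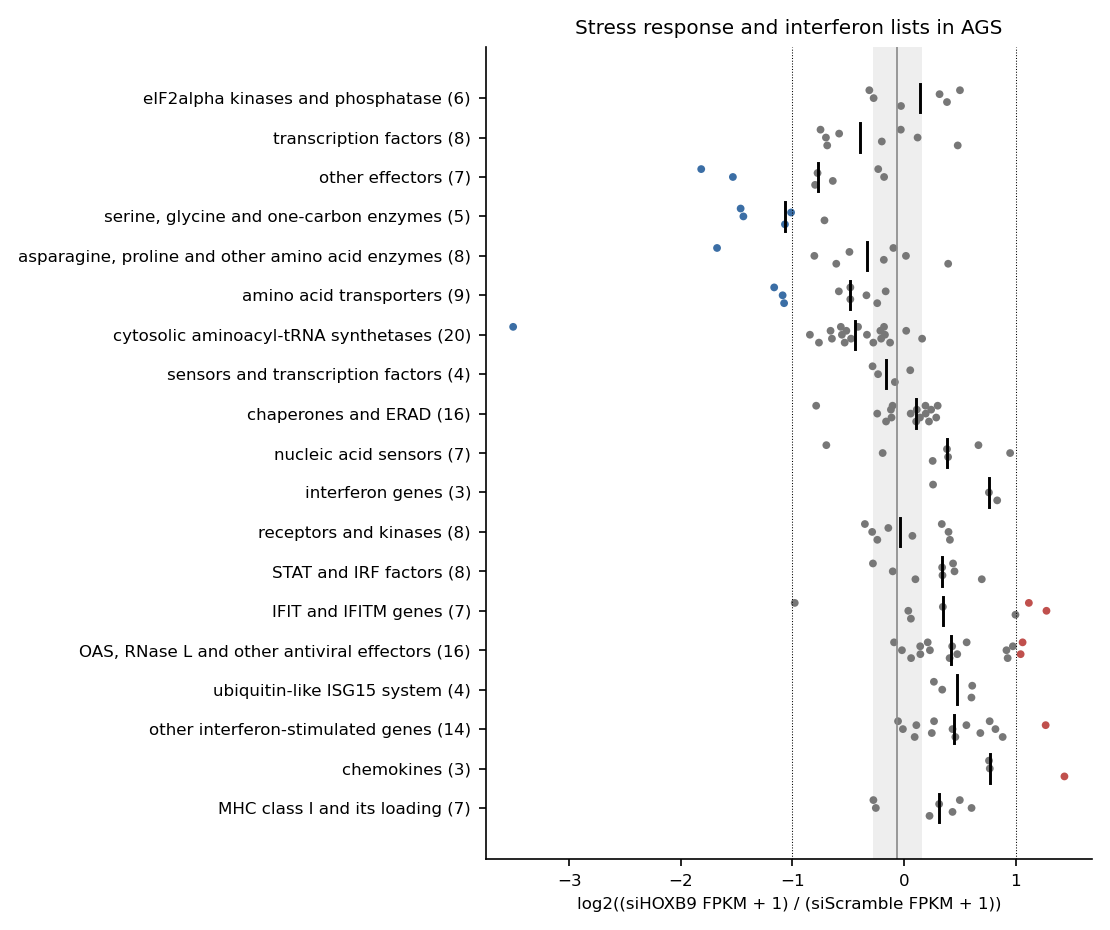
Change of every measured member of the integrated stress response, unfolded protein response, interferon and MHC class I lists, from top to bottom, with the number of members in brackets. Black bars are list medians, blue points fell and red points rose past the dotted 2-fold lines, and the grey band holds the middle 50% of all measured rows; the amino acid lists lie left of the band and most interferon lists right of it.

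Transcripts of the mitochondrial genome were higher with siHOXB9. All 15 measured members, 13 protein-coding genes and 2 ribosomal RNAs, lay above 0 with a median of 0.78, under each scaling tried, and MT-ND4L, a complex I subunit, passed 2-fold (378 and 780 FPKM, change 1.04). MT-CO1, a subunit of cytochrome oxidase, was at 919 FPKM with siScramble and 1706 FPKM with siHOXB9 (0.89), and MT-ATP8 at 1096 and 2165 FPKM (0.98). MT-ND6, the 1 protein-coding gene of the light strand, was at 257 and 501 FPKM (0.96); without strand, its reads cannot be told apart from those of the opposite strand. The smallest difference was that of MT-ND3 (1101 and 1336 FPKM, 0.28), followed by the small ribosomal RNA MT-RNR1 (197 and 257 FPKM, 0.38). The library was made from polyadenylated RNA, and over protein-coding genes without a shared exon the medians of the nuclear chromosomes ran from -0.11 to -0.02, against 0.79 for 8 such mitochondrial genes. None of these 8 passed 2-fold, so MT-ND4L is not among them.

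Nuclear genes of the same organelle did not share this, in a comparison where 57% of all rows lay below 0. The 45 nuclear subunits of the respiratory chain had a median of -0.10 with 33 below 0 and none past 2-fold, and with the libraries rescaled to the same sum the median was -0.01 with 23 below 0. COX4I1, a nuclear subunit of the same enzyme as MT-CO1, was at 758 and 705 FPKM (change -0.10), and NDUFA9, the complex I subunit furthest below 0, at 81.9 and 59.2 FPKM (-0.46). Of 15 nuclear genes for upkeep and expression of the mitochondrial genome 14 were below 0, with a median of -0.21. TFAM, which packs and transcribes it, was at 58.4 and 46.9 FPKM (-0.31), POLRMT, its RNA polymerase, at 87.1 and 75.1 FPKM (-0.21), and MTPAP, which adds poly(A) to its transcripts, at 10.9 and 6.08 FPKM (-0.75).

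**Figure D5:**
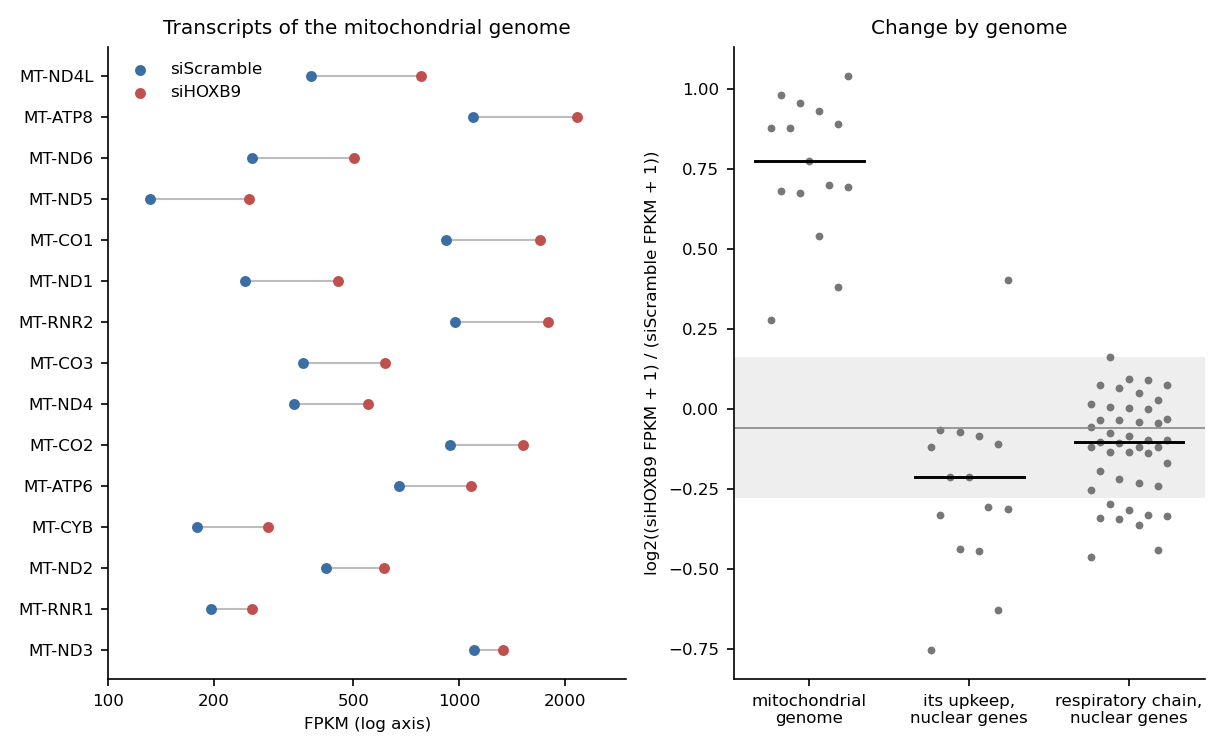
Left, FPKM of the 15 mitochondrially encoded transcripts in the siScramble and the siHOXB9 library on a log axis. Right, change of each member of the mitochondrial genome list and of the 2 nuclear groups, with medians as black bars (0.78, -0.21 and -0.10) and the middle 50% of all measured rows as a grey band.

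Genes of carbon metabolism and protein synthesis were mostly somewhat lower, with few large differences. Among all rows 57% lay below 0, with a median of -0.06. Of 22 glycolysis genes 18 lay below 0 (median -0.33) and none fell. SLC16A1, a lactate transporter, was at 453 FPKM with siScramble and 263 FPKM with siHOXB9 (change -0.78), ALDOC at 23.9 and 13.5 FPKM (-0.78), and the hexokinases HK1 and HK2 at 28.0 and 16.1 FPKM (-0.76) and at 20.3 and 12.1 FPKM (-0.71). In the TCA cycle 11 of 12 were below 0 (median -0.29), and CS, citrate synthase, was at 103 and 57.9 FPKM (-0.83). HIF1A, the oxygen-regulated factor that drives many glycolysis genes, was at 52.3 and 51.5 FPKM (-0.02).

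Cytosolic ribosomal protein genes were below 0 in 42 of 44 cases, with a median of -0.25 and none past 2-fold. RPL35 stood out from them at 3827 and 1959 FPKM (change -0.97). Proteasome subunits (27, median -0.15) and genes of MYC and ribosome biogenesis (21, median -0.16) were closer to the median of all rows, and MYC itself was at 110 and 114 FPKM (0.04). Among protein-coding genes without a shared exon, those with short transcripts had lower changes than those with long ones: the median was -0.12 in the fifth with 312 to 2075 bases and -0.01 in the fifth with 5922 bases or more, and 63.9% and 52.4% lay below 0. Its part in the values of ribosomal protein genes, which have short transcripts, was not tested.

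Of 14 heme and iron genes 2 rose, while 1.68% of all rows did. HMOX1, heme oxygenase, which breaks down heme and is a target of NRF2 and BACH1, was at 47.8 FPKM with siScramble and 148 FPKM with siHOXB9 (change 1.61), and SLC40A1, ferroportin, the iron exporter, at 17.7 and 39.7 FPKM (1.13). FTH1, the heavy chain of ferritin, was at 1777 and 2346 FPKM (0.40), FLVCR1, a heme exporter, at 15.8 and 23.9 FPKM (0.57), and FECH, which makes heme, at 23.6 and 12.8 FPKM (-0.84). The 14 members together had a median of 0.04, with 7 above and 7 below 0. Other NRF2 and oxidative stress genes went both ways, with 8 of 25 above 0. GPX2, a glutathione peroxidase, was at 67.8 and 96.2 FPKM (0.50) and AKR1B10, an aldo-keto reductase, at 1.72 and 3.79 FPKM (0.82). NQO1 was at 815 and 740 FPKM (-0.14), GCLM at 13.9 and 9.94 FPKM (-0.44) and TXNRD1 at 108 and 79.7 FPKM (-0.43), and the median of the 25 genes was -0.19. The regulators were at 33.9 and 35.0 FPKM for NFE2L2 (NRF2), 36.7 and 27.0 FPKM for KEAP1 and 3.27 and 1.96 FPKM for BACH1.

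Enzymes of steroid and vitamin D metabolism were higher in 7 of 9 cases, and 3 rose, against 3 of 5 and 1 among those without a shared exon. The median was 0.31, and 0.04 with no filter on low values. Over all rows 1.68% rose, and the list was chosen with earlier results of these data known. CYP27B1, which makes the active form of vitamin D, was at 0.418 and 9.95 FPKM (change 2.95); it shares exon bases with METTL1, and reads of both cannot be told apart without strand. HSD17B2, which inactivates estradiol, rose from 4.18 to 10.4 FPKM (1.13) and also shares exon bases with another gene. HSD3B1, described above, does not. CYP2R1, the 25-hydroxylase, was at 4.55 and 6.94 FPKM (0.52), and VDR, the vitamin D receptor, at 1.94 and 2.02 FPKM (0.04).

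Genes of epithelial identity were above 0 in 40 of 58 cases, with a median of 0.12, and 2 rose. Over all rows 5698 of 13252 lay above 0 and 1.68% rose, so a count of 2 says little about the group. KRT20, a keratin of differentiated intestinal epithelium, was at 0.364 FPKM with siScramble and 2.70 FPKM with siHOXB9 (change 1.44), and KRT17 at 10.6 and 24.9 FPKM (1.16). Other intestinal genes were higher under 2-fold, among them CDHR5, a brush border cadherin (9.97 and 18.4 FPKM, 0.82), CDH17, liver-intestine cadherin (76.0 and 114 FPKM, 0.58), and CDX2, the factor of intestinal identity (74.8 and 107 FPKM, 0.51). LGALS4 went the other way, at 216 and 128 FPKM (-0.75). In the gastric list TFF1, a stomach mucosal peptide, was at 26.2 and 14.8 FPKM (-0.78) and GATA6 at 103 and 139 FPKM (0.43). GATA6-AS1, the antisense RNA of GATA6, had a change of 2.12 (9.29 and 43.9 FPKM). It was picked out after its values were seen, and it shares exon bases with GATA6, so that reads of the pair cannot be told apart.

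Junction genes were above 0 in 17 of 22 cases (median 0.09), with a change of 0.71 for CDH1, from the low levels given above, and CLDN1, a tight junction protein, at 9.81 and 16.6 FPKM (0.71). The mesenchymal list held no common direction. VIM, vimentin, was at 1.97 and 2.12 FPKM (0.07), TAGLN, a smooth muscle and fibroblast protein, at 54.8 and 100.2 FPKM (0.86), and SNAI1, a repressor of CDH1, at 5.18 and 4.19 FPKM (-0.25). Of 8 fibroblast markers 3 were measured. COL1A1 was at 15.8 and 29.3 FPKM, PDGFRA at 12.2 and 12.7 FPKM and PDGFRB at 0.332 and 1.31 FPKM. COL1A2 and DCN were listed at 0 in both libraries. The summed level of the fibroblast markers was 28.4 and 43.7 FPKM. Of 7 myeloid markers 3 were measured. LYZ, a gene that stomach epithelium also makes, was at 2197 and 2163 FPKM. CSF1R was at 5.99 and 8.11 FPKM (0.38) and CD68 at 3.30 and 2.67 FPKM (-0.23). CD163 and FCGR3A were listed at 0 in both libraries. In bulk RNA fewer cells of a kind, for instance fewer cells in division, and less RNA of a gene per cell cannot be told apart.

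Among genes of the cell surface and matrix, single members differed widely. For comparison, 57% of all rows lay below 0, 1.68% rose and 2.21% fell. In the protease list MMP1, interstitial collagenase, fell from 185 to 49.2 FPKM (change -1.89), MMP14, which anchors proteolysis at the membrane, was at 162 and 192 FPKM (0.24), and the inhibitor TIMP1 was at 262 and 316 FPKM (0.27). Of 14 matrix proteins 11 were above 0 (median 0.26), with THBS1, thrombospondin, at 1.60 and 4.67 FPKM (1.13) and the laminin chain LAMC1 at 121 and 202 FPKM (0.73). Integrins were lower in 7 of 9 cases (median -0.16) and none passed 2-fold, with ITGA3 at 62.5 and 47.0 FPKM (-0.40). In the S100 family, small calcium-binding proteins, S100A6 fell from 1940 to 603 FPKM (-1.69) and S100A2 from 7.82 to 2.92 FPKM (-1.17), and S100A4, linked to cell motility, was at 77.4 and 38.2 FPKM (-0.998, just under 2-fold). Their close relatives S100A10 and S100A11 were at 2331 and 2972 FPKM (0.35) and at 1869 and 1976 FPKM (0.08). MMP1, THBS1 and S100A6 share exon bases with another gene, whose reads cannot be told apart from theirs without strand.

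Angiogenic growth factors have been studied as HOXB9 targets. Of 7 measured, PGF, placental growth factor, fell from 7.31 to 2.49 FPKM (change -1.25). VEGFA was at 60.4 and 53.3 FPKM (-0.18), TGFB1 at 91.8 and 74.1 FPKM (-0.30) and PDGFA at 32.3 and 36.8 FPKM (0.18). PGF was thus the 1 member past 2-fold, and over all rows 2.21% fell.

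The signalling lists showed few members past 2-fold. Beside their counts, 57% of all rows lay below 0 and 2.21% fell. WNT target genes had a median of -0.49 over 11 members with 8 below 0, and their feedback inhibitors NKD1 and NOTUM were at 9.36 and 4.69 FPKM (change -0.86) and at 18.8 and 10.1 FPKM (-0.83). AXIN2, the most used WNT target, was at 152 and 135 FPKM (-0.17), and DKK1, a secreted inhibitor, at 264 and 386 FPKM (0.55). In MAPK signalling ETV4, an ETS factor induced by the pathway, fell from 58.3 to 23.5 FPKM (-1.28), ETV5 was at 38.8 and 30.7 FPKM (-0.33) and the feedback phosphatase DUSP6 at 13.8 and 11.2 FPKM (-0.28). ETV4 and NKD1 are among those that share exon bases with another gene. Ligands and receptors of the TGF-beta family were below 0 in 9 of 11 cases (median -0.31), with TGFBR2 at 21.4 and 14.5 FPKM (-0.53).

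NF-kappaB factors and cytokines were above 0 in 17 of 20 cases (median 0.22), against 5698 of 13252 over all rows. NFKBIZ, a nuclear cofactor of NF-kappaB, rose from 2.77 to 8.77 FPKM (change 1.37). RELB was at 9.53 and 16.1 FPKM (0.70), the cytokine IL32 at 73.3 and 144 FPKM (0.97) and the chemokine CXCL1 at 4.53 and 8.97 FPKM (0.85), while NFKBIA, the feedback inhibitor of the classical pathway, was at 29.1 and 28.1 FPKM (-0.05). In the BCL2 family all 12 genes stayed under 2-fold, with MCL1 at 110 and 109 FPKM (-0.02).

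Lysosome genes were mostly higher, with 12 of 17 above 0, a median of 0.28 and none past 2-fold. Among all measured rows 5698 of 13252 lay above 0, with a median of -0.06. OSTM1, which stabilizes a chloride exchanger of lysosomes, was at 12.2 and 24.5 FPKM (change 0.95), ATP6V0D1, a subunit of the proton pump, at 42.4 and 72.9 FPKM (0.77), and the proteases CTSA and CTSD at 244 and 411 FPKM (0.75) and at 651 and 936 FPKM (0.52). In the autophagy list 11 of 15 were above 0 (median 0.14), with GABARAPL1 at 27.2 and 49.3 FPKM (0.84). TFEB, the factor that drives lysosome genes, was at 7.998 and 5.87 FPKM (-0.39).

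None of the other HOX genes passed 2-fold. Of the 39 HOX genes with a row, 9 reached 1 FPKM, 5 of the HOXB and 4 of the HOXC cluster. HOXB6 was at 18.8 FPKM with siScramble and 20.1 FPKM with siHOXB9 (change 0.09), HOXB3 at 8.94 and 11.7 FPKM (0.36), HOXB5 at 3.86 and 5.01 FPKM (0.31) and HOXB13 at 0.983 and 1.37 FPKM (0.26). HOXC5, at 2.38 and 0.842 FPKM (-0.88), was the lowest of the others. Of 7 PBX, MEIS and PKNOX cofactors 5 were below 0, against 57% of all rows, and none passed 2-fold. MEIS2 was at 8.78 and 4.24 FPKM (-0.90), PBX3 at 5.66 and 3.51 FPKM (-0.56) and MEIS3 at 39.6 and 63.3 FPKM (0.66). Of the partners and modifiers of HOXB9, GMNN fell, as given above, and KAT2B (PCAF) was at 2.21 and 2.28 FPKM (0.03). The PBX-HOX9 letters TGATTTAT were in 0 of 203 promoters of genes that fell, in 2 of 129 promoters of genes that rose, and in 0.397% of those of all measured genes.

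Long noncoding RNAs were taken from 103 that reached 1 FPKM, had a single row and shared no exon, of which 3 rose and 4 fell. Among 739 measured rows matched to GENCODE genes that are not protein-coding, 10.96% passed 2-fold. Over all rows the share past 2-fold was 23.0% where the mean of the libraries was under 1 FPKM and 7.09% from 1 to 3 FPKM. The counts of long noncoding RNAs that rose and fell therefore say little about the group. AC136297.1 was at 89.8 FPKM with siScramble and 9.68 FPKM with siHOXB9 (change -3.09), AC005256.1 at 15.4 and 4.81 FPKM (-1.50), and LINC01023 at 3.86 FPKM with siScramble and listed at 0 with siHOXB9. AL360181.1 and AL356740.1 were listed at 0 with siScramble and at 1.95 and 1.82 FPKM with siHOXB9. From the list of lncRNAs studied in cancer, H19, an imprinted RNA that also hosts a microRNA, fell from 818 to 242 FPKM (-1.76), and MALAT1 was at 3.67 and 8.07 FPKM (0.96). H19 and MALAT1 share exon bases with other transcripts. The other 17 of this list lay between -0.54 and 0.36.

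Genes of the RNA interference pathway itself, through which both siRNAs act, did not pass 2-fold. AGO2, the slicing Argonaute, was at 31.7 and 18.1 FPKM (change -0.78), AGO1 at 7.03 and 6.70 FPKM (-0.06) and DICER1 at 9.49 and 11.3 FPKM (0.23). Commonly used reference genes spread from -0.51 for TUBA1B (901 and 632 FPKM) to 0.52 for POLR2A (26.2 and 38.0 FPKM), with GAPDH at 3542 and 2932 FPKM (-0.27), ACTB at 1892 and 1712 FPKM (-0.14) and TBP at 12.3 and 13.2 FPKM (0.09).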

How the data were processed

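The 2 AGS libraries, 1 per siRNA, were compared. Per the labels' protocols, poly-T beads selected mRNA, which was fragmented, copied into cDNA from random primers and turned into Illumina libraries, with no step that keeps strand. The authors deposited FPKM values by gene symbol. The builds GRCh38 and hg38 are those of the submitters' processing notes, while no aligner, counting tool or annotation is given in the sources used here. These values sum to 831098 (siScramble) and 777152 (siHOXB9) and were used without rescaling. A pseudocount of 1 FPKM, a filter of 1 FPKM in either library and a 2-fold rule were used, with no test. Fragment depth was estimated from low FPKM values of single-transcript genes, with 260 bases taken off the transcript length. There, 63.1% and 62.4% of 244 and 229 values lay within 0.05 of a whole number, where an even spread gives 10%.

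Symbols were matched to GENCODE 29, with RefSeq synonyms, for 11791 of 13252 rows, and 97 further rows have a symbol with several rows. A shared exon is any exonic base that overlaps another gene on either strand. Of 110 gene lists, 90 had at least 5 measured members; of these, 25 had a median at least 0.25 below and 14 at least 0.25 above that of all rows. For a symbol with several rows the row with the highest sum was used, and 8 listed names have no row. The members and lists were chosen with earlier results of these data known. Genes were named by rule: HOXB9, the 15 largest protein-coding changes per direction at 5 FPKM or more without a shared exon, the 5 largest lncRNA changes per direction, and in each list the regulators and up to 4 further members, or any member of lists with under 10 measured; members shown because they lay at the other end of a list (SPC24, WEE1, BRCA1) were chosen after their values were seen. Promoter motifs were counted per start site on both strands. The analysis used Python 3.11.15, pandas 2.3.3 and numpy 2.4.6 and was tested on simulated data. Some genes that these rules name are not reported here.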

Additional observations from a re-analysis of the deposited data

How the results depend on the processing

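With 1 library per siRNA no replicate could be left out and no paired analysis was possible because each group has 1 sample. The counts of genes that rose and fell, 223 and 293, became 452 and 585 with a pseudocount of 0.1 FPKM, 39 and 60 with 5 FPKM, 101 and 155 with a filter of 5 FPKM, 747 and 1109 with a 1.5-fold rule, and 57 and 80 among 5493 protein-coding genes whose symbol and exons are unique. Without the filter they stayed at 223 and 293. After rescaling to the same sum, centring on the median and quantile normalization they were 278 and 235 (54.2% upward), 266 and 249 (51.7%) and 243 and 260 (48.3%), against 43.2% upward as deposited. The HOXB9 change in AGS lay between -1.86 and -1.18 over its 5 alternatives and was past 2-fold in each. Of the 39 list medians at least 0.25 from that of all rows, 37 kept their sign under every alternative, and those of the HOXB cluster and of MHC class I became 0 without the filter. Several list medians near 0, among them those of the cholesterol pathway, lncRNAs and the nuclear genes of complex I, changed sign with the scaling.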
